A study of Mus musculus with 47 samples.

Results

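GABA-A receptors are chloride channels of the neuronal surface that open when they bind GABA, the main inhibitory transmitter of the brain. Each receptor is built from several subunits, usually a pair of alpha and a pair of beta subunits with a gamma or a delta subunit, and the alpha subunit sets much of where the receptor sits and which drugs it answers to. In the hippocampus, receptors at synapses give brief inhibition, whereas receptors outside synapses, which include those with the alpha subunit of Gabra5 or the delta subunit, give lasting (tonic) inhibition. Counts of 7 subunit genes (Gabra2, Gabra3, Gabra4, Gabra5, Gabrb1, Gabrb2 and Gabrd), taken by name from 35486 genes in the table, are described here in the hippocampus of 47 mice. All 7 were among the 17778 genes that passed the filter on low counts.

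The mice were male and of the C57BL/6J background and had been given vehicle or mouse platelet factor 4 (PF4, a chemokine released by platelets) by daily intraperitoneal injection, with behavioural testing. The groups were Young Veh (n = 13, 3.75 to 5.26 months old), Young PF4 (n = 12, 4.08 to 5.03 months), Old Veh (n = 12, 17.47 to 19.97 months) and Old PF4 (n = 10, 17.4 to 20.23 months). The study asked how age and systemic PF4 alter the hippocampus. The sample labels also carry library numbers, which ran from 1 to 12 in Old Veh, 13 to 23 in Old PF4 and 24 to 48 in the young mice. Numbers of Young Veh and Young PF4 were interleaved. What the numbers stand for is not given. Differences between ages, or of PF4 in aging mice, therefore cannot be told apart from any effect tied to these numbers. Each library came from the snap-frozen hippocampus of 1 animal, so a lower count can mean fewer cells of a type or less RNA per cell, which cannot be told apart.

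Libraries held 2242879 to 21112908 counts (median 10374007), and 8 of 47 held under 5000000, 4 of them Old Veh. No marker of the hippocampal neuron lists (dentate granule, CA1, CA3 and CA2, interneuron) found in the table was at 0 in every library. Several libraries stood apart. Young PF4 replicate 8 had a summed level of 541 CPM (read counts relative to the library's total, scaled by TMM) for 8 markers of the adjoining thalamus, beside a group median of 128 and a highest level of 194 in any library of the other groups. Young Veh replicate 4 and Old PF4 replicate 8 had the lowest length index, the mean log2 level of long genes minus that of short genes, at -0.35 and -0.23 against a highest value of 0.18 in any library. Old Veh replicate 1 had the highest summed level of 10 dentate granule markers, 812 CPM. The values without 1 of these 4 libraries are given for some members and not for all.

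The genes lay in few places of the genome (GRCm38, GENCODE annotation). Gabra2 (chromosome 5, 70957597 to 71095849, minus strand), Gabra4 (chromosome 5, 71569749 to 71658308, minus) and Gabrb1 (chromosome 5, 71658113 to 72149037, plus) formed a cluster, in which Gabrb1 spanned 490.9 kb. Gabra4 and Gabrb1 lay head to head and overlapped by 196 bases, 46 of them exonic in both. The libraries did not keep the strand, so reads from those bases cannot be assigned to either gene. Gabra3 lay on chromosome X (72432681 to 72656848, minus), Gabra5 on chromosome 7 (57407672 to 57510059, minus), Gabrb2 on chromosome 11 (42419757 to 42629028, plus) and Gabrd on chromosome 4 (155384980 to 155398112, minus). Gabra5 shared 148 exonic bases with Gm9962, an antisense gene with 8920 reads in all libraries against 143318 for Gabra5.

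The start regions of the genes on which the results turn are shown from RefSeq (GRCm38.p6), each 250 bases before to 50 after the annotated start and 5′ to 3′ on the gene's strand. Gabrb1 is shown because it alone passed the threshold in a comparison, Gabrb2 because it lay nearest to the threshold, and Gabra4 and Gabra5 because their levels varied together most closely. Capitals mark matches, on either strand, to the GC box of Sp1 (GGGCGG), the half-site of CREB (TGACG), the site of Egr factors (GCGNGGGCG) or the TATA box (TATAAA). The windows are chr5:71657671-71657970 (plus) for Gabrb1, chr11:42420190-42420489 (plus) for Gabrb2, chr5:71658259-71658558 (minus) for Gabra4 and chr7:57510010-57510309 (minus) for Gabra5.
Gabrb1: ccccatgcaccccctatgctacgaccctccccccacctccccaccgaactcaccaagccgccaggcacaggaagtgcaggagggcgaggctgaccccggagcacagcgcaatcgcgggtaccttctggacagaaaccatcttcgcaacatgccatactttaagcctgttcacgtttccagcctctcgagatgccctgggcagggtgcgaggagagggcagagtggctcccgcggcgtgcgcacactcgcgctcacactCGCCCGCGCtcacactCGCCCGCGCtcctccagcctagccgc
Gabrb2: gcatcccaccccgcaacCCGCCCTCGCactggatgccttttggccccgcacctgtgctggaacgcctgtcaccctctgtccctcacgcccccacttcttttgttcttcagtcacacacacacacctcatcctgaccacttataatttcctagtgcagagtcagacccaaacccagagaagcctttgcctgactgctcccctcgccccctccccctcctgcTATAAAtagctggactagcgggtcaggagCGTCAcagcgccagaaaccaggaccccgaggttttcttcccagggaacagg
Gabra4: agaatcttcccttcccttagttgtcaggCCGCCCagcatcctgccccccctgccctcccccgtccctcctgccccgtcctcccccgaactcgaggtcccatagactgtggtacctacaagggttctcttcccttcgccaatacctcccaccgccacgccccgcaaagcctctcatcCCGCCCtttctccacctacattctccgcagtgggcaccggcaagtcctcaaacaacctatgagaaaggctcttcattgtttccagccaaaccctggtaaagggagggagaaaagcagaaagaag
Gabra5: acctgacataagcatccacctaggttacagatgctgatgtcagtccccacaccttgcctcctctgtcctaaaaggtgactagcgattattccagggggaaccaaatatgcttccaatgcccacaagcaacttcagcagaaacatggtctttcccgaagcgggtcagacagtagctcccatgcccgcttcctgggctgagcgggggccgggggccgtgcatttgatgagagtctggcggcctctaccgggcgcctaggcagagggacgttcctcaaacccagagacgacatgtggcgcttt

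The Gabrb1 window had 66% GC, 25 CpG dinucleotides and 2 Egr matches, both just after the start, where 5.55% of all 32851 windows held such a match. It lay inside the annotated Gabra4 gene, since this RefSeq start (71657921) is 387 bases within the start of Gabra4. RefSeq gives Gabrb1 a second start at 71699932, whose window held none of these motifs. The Gabrb2 window held a GC box that overlapped an Egr match, 1 CREB half-site and 1 TATA box. The windows of its other RefSeq starts, 42420774 and 42421201, held none of these motifs. Of all windows, 35.7% held the GC box, 20.8% the half-site and 13.6% the TATA box. Gabra4 had 2 GC boxes and Gabra5 none of these motifs, although their levels varied together most closely. The full CREB site (TGACGTCA), found in 1.79% of windows, was in no window of the 6 members for which the table held one. A match is a run of letters and does not show that a factor was bound.

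Levels of different genes were compared per length, as CPM per kilobase of exon. Gabra5, which encodes the alpha subunit of extrasynaptic receptors in pyramidal cells, had by far the highest level, 99.4 ± 12.3 CPM per kilobase (SD, n = 47). Gabra4, whose product pairs with delta in dentate granule cells and the thalamus, followed at 33.6 ± 3.59. In 47 of 47 libraries Gabra5 was above Gabra4, and in 47 of 47 Gabra4 was above Gabrb2. The beta subunits, which carry part of the GABA binding site and are needed for assembly, came next, at 20.4 ± 2.28 for Gabrb2 and 15.6 ± 1.12 for Gabrb1. Gabra2, which encodes an alpha subunit found at synapses and on the initial segment of pyramidal cell axons, had 15.2 ± 1.498 CPM per kilobase. Gabrb1 exceeded Gabra2 in 30 of 47 libraries only, so these neighbours were not separated beyond their spread on this length. At the low end were Gabra3, an alpha subunit gene known for its expression in cortex and the reticular thalamus, at 10.3 ± 1.89, and Gabrd, the gene of the delta subunit, at 9.81 ± 0.899. Gabra3 was above Gabrd in 27 of 47 libraries, and these also were not separated. With the longest transcript as the length, Gabra4, Gabrb2 and Gabra2 had 49.8, 32.5 and 19.9 CPM per kilobase, and Gabrb1 had 15.7, so that the order of Gabra2 and Gabrb1 was reversed.

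**Figure D1:**
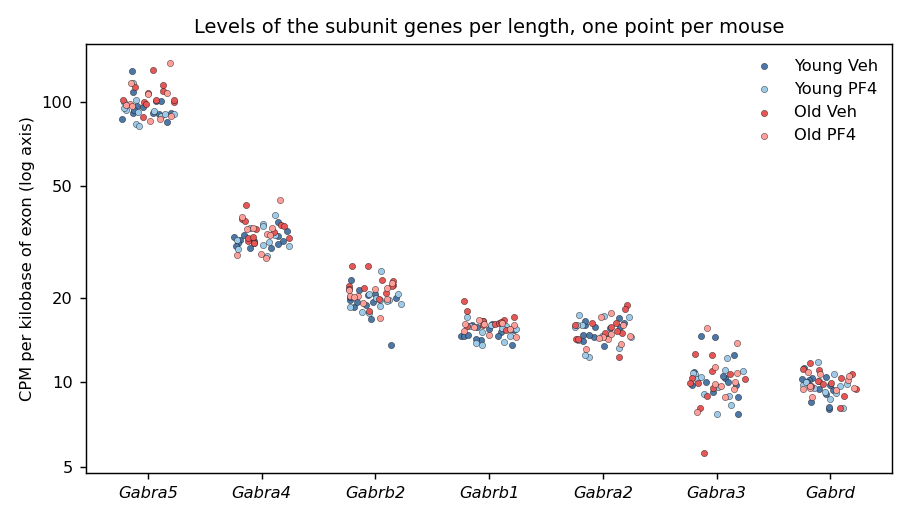
Level of each subunit gene in CPM per kilobase of exon (log axis), 1 point per mouse and coloured by group, in the order of the means. Gabra5 stands above Gabra4 in 47 of 47 libraries, while Gabrb1 and Gabra2, and Gabra3 and Gabrd, overlap.

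Gabra5 had the largest share of the measured alpha genes in each of the 4 groups. Differences in the shares between groups were not tested. Gabra5 made up 62.3% ± 1.73 of the summed level per length of the 4 alpha genes in Young Veh (SD, n = 13) and 61.7% ± 2.35 in Young PF4 (n = 12). The share was 63.3% ± 1.79 in Old Veh (n = 12) and 62.9% ± 1.52 in Old PF4 (n = 10), and the ranges of the 4 groups overlapped. Gabra4 made up 21.2% ± 1.31, Gabra2 9.70% ± 1.28 and Gabra3 6.53% ± 1.09 over all 47 libraries. Of the sum of Gabrb1 and Gabrb2, Gabrb2 made up 56.5% ± 3.05. The shares depend on the length used, since Gabrb2 and Gabrb1 had 32.5 and 15.7 CPM per kilobase with the longest transcript. They cover only the members, since other alpha and beta genes are expressed in the hippocampus.

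With age in vehicle-treated mice, Gabrb1 rose and the other 6 genes did not pass the threshold. Of the 7 genes, 6 were higher in Old Veh than in Young Veh and 1, Gabra3, was lower. In this comparison 2.77% of the 17778 tested genes were called (492), with 2.16% called higher (384) and 0.607% called lower (108), by edgeR's quasi-likelihood test at an adjusted p under 0.05, so the 1 member called of 7 says little about the family. The median log2 fold change of the members was 0.12, beside -0.013 over all genes tested.

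Gabrb1 ranged from 187 to 223 CPM (median 205) in Young Veh and from 212 to 269 CPM (median 228) in Old Veh. Of 12 Old Veh mice, 12 were above the Young Veh median and 8 above every Young Veh mouse, and the groups overlapped in the rest. The mean was 207 ± 10.7 (SD, n = 13) against 231 ± 15.2 CPM (n = 12). The log2 fold change was 0.16 (SE 0.036, 95% interval 0.086 to 0.23, edgeR adjusted p = 0.00671), or 11.5% higher. The call held in 25 of 25 fits that left out 1 library (adjusted p 0.00306 to 0.0188), the weakest without Old Veh replicate 1, which held the highest Gabrb1 level and the highest dentate marker level. It was lost with the choroid plexus score as a covariate (log2 fold change 0.13, adjusted p = 0.0553).

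Marker levels that moved with this comparison were as follows. The 10 choroid plexus markers were all lower in Old Veh, with none called, and their summed level ran from 12.0 to 4259 CPM (median 1943) in Young Veh and from 15.1 to 4259 (median 47.1) in Old Veh. Of 10 dentate granule markers, 7 were higher and none was called, with sums of 478 to 646 CPM in Young Veh and 511 to 812 in Old Veh. Of 8 thalamus markers, 6 were lower and none was called, with sums of 115 to 179 CPM and 88.8 to 194. The microglia markers were higher in 8 of 8, and C1qa was called, with sums of 353 to 439.5 CPM and 379 to 518. Of 8 astrocyte markers, 3 were higher and 5 lower, with S100b called higher and Aldh1l1 called lower, and sums of 2747 to 3773 CPM and 2823 to 3662. Oligodendrocyte markers were higher in 7 of 8, with none called and sums of 5712 to 7140.0 CPM and 5504 to 8660. CA1 markers were lower in 6 of 7, with none called and sums of 592 to 789 CPM and 519 to 784. None of these lists had a marker at 0 in every library. With the thalamus score as a covariate, Gabrb1 was still called (log2 fold change 0.13, adjusted p = 0.0145). The part of the dentate, CA1 and glial markers in the result was not tested.

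Gabrb1 is also a long gene, with a longest transcript of 13737 bases. Of genes whose longest transcript had at least 4594 bases, 6.13% were called in this comparison, against 1.31% of those with at most 2005.5 bases. With the length index as a covariate, Gabrb1 kept its call (log2 fold change 0.15, adjusted p = 0.00829), and Gabra5, which was not called without it, passed the threshold (0.19, adjusted p = 0.0128).

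Gabrb2, the second beta gene, had a larger but more variable difference. It ranged from 86.4 to 147 CPM (median 124) in Young Veh and from 114 to 165 CPM (median 140.2) in Old Veh. The ranges overlapped widely, although 11 of 12 Old Veh mice were above the Young Veh median. The log2 fold change was 0.19 (SE 0.057, interval 0.076 to 0.31), and the adjusted p of 0.0543 (edgeR) missed the threshold. Gabrb2 was called by DESeq2 (adjusted p = 0.0358), with the thalamus score as a covariate (0.0121) and without the 3 libraries of extreme thalamus score or length index (0.0343). It was farthest from a call without the libraries under 5000000 counts (log2 fold change 0.14, adjusted p = 0.319). It was also called in 4 of 25 fits that left out 1 library, namely Old Veh replicate 1 and Young Veh replicates 1, 6 and 8, with adjusted p of 0.0235 to 0.121 over the 25. The lowest log2 fold change of these fits, 0.15 (edgeR adjusted p = 0.0902), came without Young Veh replicate 4, which held the lowest Gabrb2 level. The Gabrb2 level varied with the length index over the 47 libraries (Pearson's r = 0.63), and the difference was 0.13 (adjusted p = 0.0848) with that index as a covariate.

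Gabra4 and Gabra5 were each about 9% higher by point estimate and were not called. Gabra4 ranged from 183 to 227 CPM (median 194) in Young Veh and from 191 to 261 (median 211) in Old Veh, and 3 of 12 Old Veh mice exceeded the highest Young Veh value. Its log2 fold change was 0.12 (SE 0.058, adjusted p = 0.294). Gabra5 ranged from 251 to 383 CPM (median 277) in Young Veh and from 262 to 387 (median 303) in Old Veh, with 1 Old Veh value above all those of Young Veh. Its log2 fold change was 0.12 (SE 0.064, adjusted p = 0.350). In Young Veh the highest value of both genes was that of replicate 4, without which the log2 fold change of Gabra5 was 0.16 (adjusted p = 0.117).

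Gabrd, Gabra2 and Gabra3 also overlapped between ages, with 11, 9 and 11 of 12 Old Veh mice within the Young Veh range. Gabrd, whose receptors answer to low GABA and to neurosteroids, had 23.1 to 32.4 CPM (median 28.03) in Young Veh and 23.3 to 33.6 (median 28.8) in Old Veh, a log2 fold change of 0.07 (interval -0.042 to 0.18). Gabra2 had 102 to 129 CPM (median 119) and 94.2 to 144 (median 118), a log2 fold change of 0.03 (-0.085 to 0.14). Gabra3 had 30.2 to 57.2 CPM (median 39.4) and 21.9 to 49.5 (median 39.7), a log2 fold change of -0.08 (-0.29 to 0.12). The Gabra3 interval was the widest of the 7, and its value rested on single libraries. It was -0.025 without Old Veh replicate 1, which held the lowest Old Veh value, and -0.033 without Young Veh replicate 4, which held the highest of its group. Gabra2, highest in Old Veh replicate 1, had 0.0018 without that library.

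**Figure D2:**
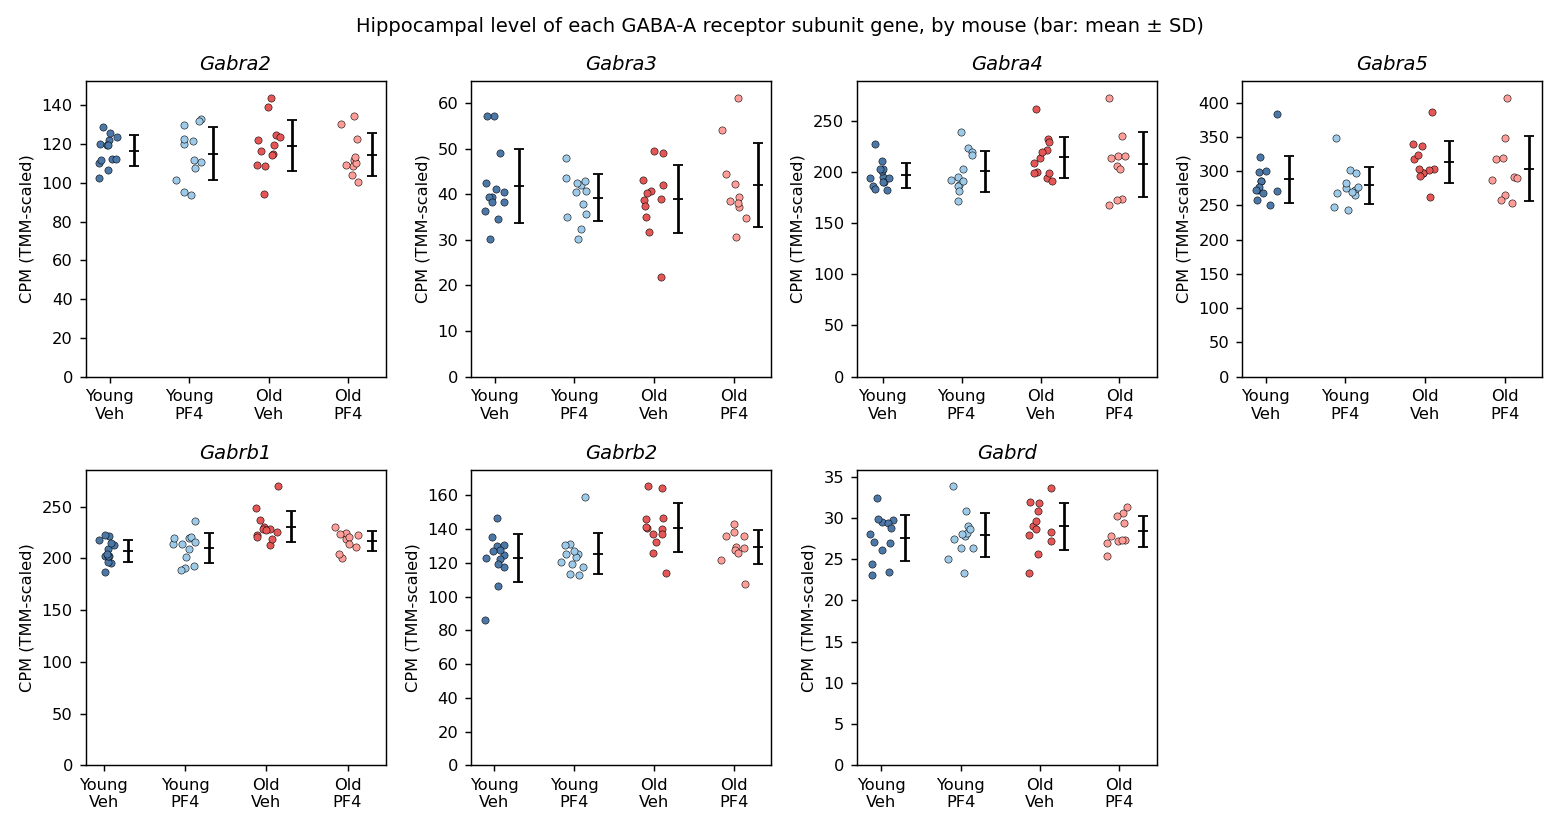
CPM (TMM-scaled, linear axis from 0) of each subunit gene, 1 point per mouse in the 4 groups, with the mean and SD as a bar beside the points. In Gabrb1, 8 of 12 Old Veh points lie above all Young Veh points, while the groups overlap more widely for the other genes.

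Age was also compared in the PF4-treated mice, which are other animals. None of the 7 genes was called there, where 0.332% of tested genes were called (59), and none had an unadjusted p under 0.05. DESeq2 also called 0 of 7. The 7 genes had 6 point estimates above 0, with a median log2 fold change of 0.05 beside 0.0041 over all genes. Gabrb1 ranged from 188 to 236 CPM (median 214) in Young PF4 and from 200.4 to 230.1 CPM (median 219) in Old PF4, and none of the 10 Old PF4 mice was above every Young PF4 mouse. Its log2 fold change was 0.04 (SE 0.038, interval -0.032 to 0.12, adjusted p = 0.833). Gabrb2 ranged from 113 to 159 CPM and from 107 to 143, with a log2 fold change of 0.05 (interval -0.071 to 0.18). Without Young PF4 replicate 8 the values were 0.029 for Gabrb1 and 0.081 for Gabrb2, and without Old PF4 replicate 8 Gabrb2 had 0.080. Without Young PF4 replicate 8, Gabra4 went from 0.051 to 0.072, Gabra5 from 0.12 to 0.10 and Gabrd from 0.030 to 0.047.

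Gabra5 had the same point estimate as in vehicle mice, 0.12 (SE 0.068, interval -0.017 to 0.26, adjusted p = 0.681). It ranged from 243 to 348 CPM (median 274) in Young PF4 and from 253 to 407 (median 290.4) in Old PF4. Without Old PF4 replicate 8, which held the highest value, the log2 fold change was 0.06. Gabra4, with the same library highest at 272 CPM, went from 0.05 to -0.0021 without it. Gabra3 had a log2 fold change of 0.10 (interval -0.12 to 0.32) and was also highest in that library, at 61.1 CPM. Without it the Gabra3 value was 0.021. Microglia markers were higher in Old PF4 than in Young PF4 in 8 of 8, with 3 called and sums of 359 to 446 CPM against 406 to 562, and oligodendrocyte markers in 8 of 8, with 1 called and sums of 4413 to 8197 against 6572 to 7972. Choroid plexus markers were lower in 10 of 10 by point estimate, with none called, a median of -1.05 and sums of 94.0 to 3448 CPM against 25.9 to 3279.8. Thalamus markers were lower in 7 of 8, with none called, a median of -0.26 and sums of 86.9 to 541 CPM against 90.3 to 193. Of the astrocyte markers 5 of 8 were higher, with Gfap called higher and sums of 2634 to 3228 CPM against 2813 to 3911. With the choroid plexus or the thalamus score as a covariate, no member was called. The part of the other lists in these values was not tested.

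PF4 treatment in aging mice gave no called member, where 0.0337% of tested genes were called (6). The comparison shares the Old Veh mice with the first one, so a high Old Veh level enters both. By edgeR 1 of 7 members, Gabrb1, had an unadjusted p under 0.05, as did 6.20% of all tested genes, and by DESeq2 none of 7 was called. Gabrb1 in Old PF4 lay between 200.4 and 230.1 CPM, beside 212 to 269 in Old Veh, with 1 of 10 Old PF4 mice above the Old Veh median and 3 below every Old Veh mouse. The log2 fold change was -0.09 (SE 0.038, interval -0.17 to -0.013, adjusted p = 0.719). Gabrb2 had -0.12 (SE 0.062, interval -0.24 to 0.0038, adjusted p = 0.820), with 107 to 143 CPM in Old PF4 beside 114 to 165 in Old Veh. With the length index as a covariate the Gabrb2 value was -0.053. Neither gene passed the threshold after adjustment.

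The other members had intervals that included 0 in this comparison, from -0.06 for Gabra2 to 0.11 for Gabra3, the only gene with a point estimate above 0. The Gabra3 value was 0.034 without Old PF4 replicate 8 and 0.051 without Old Veh replicate 1, and the Gabra2 value was -0.030 without Old Veh replicate 1. Without Old PF4 replicate 8, Gabra4 and Gabra5 each went from -0.05 to -0.10, and neither was called. Over all fits that left out 1 library, values ran from -0.10 to -0.019 for Gabra4 and from -0.10 to -0.022 for Gabra5. They ran from -0.089 to -0.030 for Gabra2 and from 0.034 to 0.15 for Gabra3. The median of the members was -0.050, beside 0.0086 over all genes. The 10 dentate granule markers were all lower in Old PF4 by point estimate, with none called and a median log2 fold change of -0.14, and their sums ran from 470.3 to 632 CPM beside 511 to 812 in Old Veh. Other lists that leaned one way in the same comparison were microglia, with 8 of 8 higher (median 0.10, sums of 406 to 562 CPM beside 379 to 518), and oligodendrocyte, with 8 of 8 higher (median 0.07, 6572 to 7972 beside 5504 to 8660). Astrocyte markers were higher in 7 of 8 (median 0.02, 2813 to 3911 beside 2823 to 3662), CA1 markers in 6 of 7 (median 0.07, 604 to 811 beside 519 to 784), and CA3 and CA2 markers were lower in 8 of 9 (median -0.04, 638 to 797 beside 679 to 868). Interneuron markers were higher in 8 of 12 (median 0.06) and choroid plexus markers in 7 of 10 (median 0.05). None of the markers was called in this comparison. With the choroid plexus score as a covariate no member was called, and the part of the other lists in the Gabrb1 difference was not tested.

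In young mice the point estimates of PF4 treatment lay in the narrowest range of the 4 comparisons of groups. None of the 7 members was called by edgeR or by DESeq2, none had an unadjusted p under 0.05, and 0% of tested genes were called, with 213 genes (1.20%) at an unadjusted p under 0.05. Point estimates ran from -0.07 for Gabra3 to 0.02 for Gabrb1. The interval for Gabrb1 was -0.048 to 0.095 and that for Gabrb2 -0.096 to 0.14, so a change of the size of the Gabrb1 age difference lay outside the first. Young PF4 replicate 8, with the high thalamus markers, had the highest Gabra4, Gabrb2 and Gabrd and the lowest Gabra5 and Gabrb1 of its group. Without it Gabrb1 had 0.037 and Gabrb2 -0.0094, and without Young Veh replicate 4 Gabra3 had -0.021 and Gabrb2 -0.020. Without Young PF4 replicate 8, Gabra4 went from 0.021 to 6.5e-05, Gabra5 from -0.045 to -0.027 and Gabrd from 0.013 to -0.0049. Of the marker lists, choroid plexus (10 of 10, median 0.15), CA1 (6 of 7, median 0.015) and thalamus markers (6 of 8, median 0.12) were mostly higher by point estimate in Young PF4. Oligodendrocyte (8 of 8, median -0.042) and CA3 and CA2 markers (7 of 9, median -0.014) were mostly lower, and none of the markers was called.

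The difference of the PF4 effects between ages was tested directly. No member was called by edgeR or DESeq2, nor was any tested gene (0%), with 707 genes (3.98%) at an unadjusted p under 0.05. Gabrb1 had a difference of -0.11 (SE 0.052, interval -0.22 to -0.0083), whose unadjusted p in edgeR's model was 0.0350 and adjusted p 1.00. Gabrb2 had -0.14 (SE 0.084, interval -0.31 to 0.030), which was -0.054 with the length index as a covariate, -0.057 without the libraries under 5000000 counts and -0.037 without the 3 libraries of extreme thalamus score or length index. Gabra3 had the largest point estimate and the only one above 0, 0.18 (SE 0.15, interval -0.11 to 0.48). The Gabra3 value was 0.10 without Old PF4 replicate 8 and ran from 0.063 to 0.19 over the alternatives. Of the marker lists, dentate granule (9 of 10, median -0.13) and choroid plexus markers (8 of 10, median -0.090) lay mostly below 0. Microglia (8 of 8, median 0.12), oligodendrocyte (8 of 8, median 0.11) and interneuron markers (11 of 12, median 0.04) lay all or mostly above 0. None of the markers was called. With the choroid plexus score as a covariate no member was called, and the part of the other lists in these values was not tested. An effect of PF4 that differs with age was therefore not shown for any subunit gene.

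**Figure D3:**
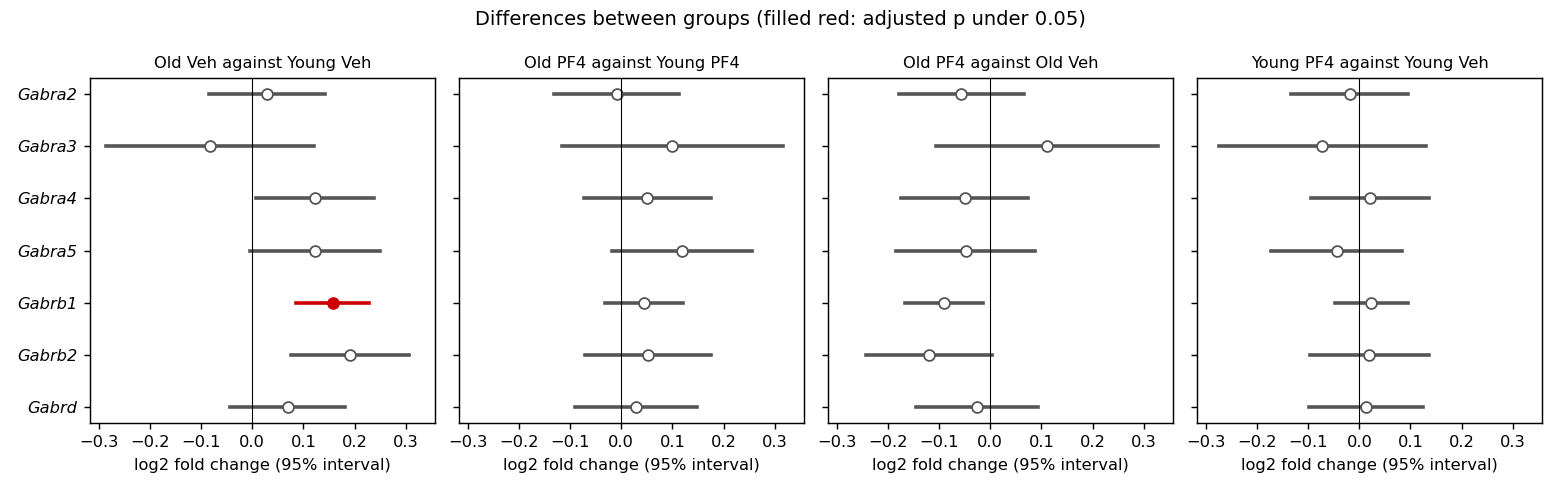
Log2 fold change of each subunit gene (point) with its 95% interval (line) from edgeR in the 4 comparisons named above the panels. Only Gabrb1 in Old Veh against Young Veh, at 0.16, has an adjusted p under 0.05 (filled red).

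**Figure D4:**
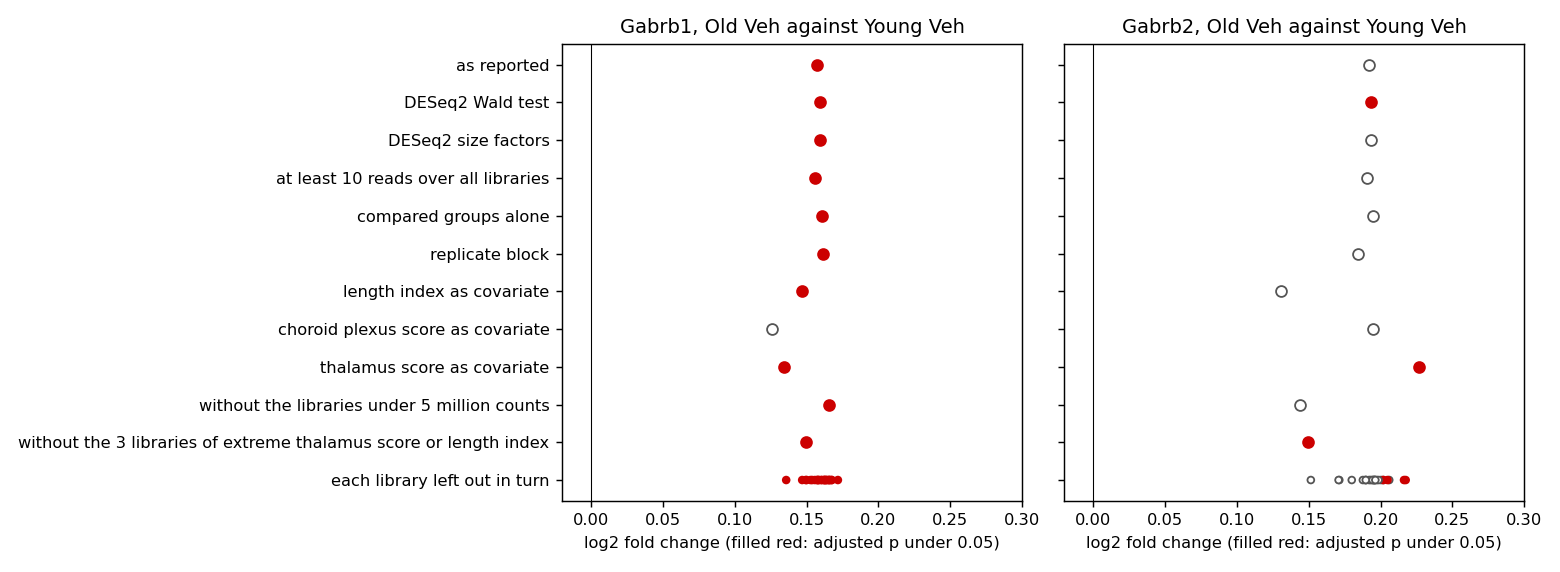
Log2 fold change of Gabrb1 and Gabrb2, Old Veh against Young Veh, under each setting (rows), with filled red points for an adjusted p under 0.05 and 1 point per fit in the lowest row. Gabrb1 loses its call only with the choroid plexus score as a covariate, while Gabrb2 gains one in 3 of the 10 settings and 4 of 25 fits without 1 library.

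Some members varied together from mouse to mouse. These correlations are descriptions over 47 libraries that share their processing and differ in depth, and they are computed on log2 CPM. The highest was that of Gabra4 with Gabra5, Pearson's r of 0.74 (Spearman's rho 0.71), 0.72 with group means removed, 0.86 without the libraries under 5000000 counts and 0.62 without the 2 libraries farthest from the Gabra4 median. Gabra2 with Gabrb1 had r of 0.55, and 0.62 with group means removed. Gabrb2 and Gabrd had 0.43. Gabra4 and Gabrb1, the head-to-head neighbours, had only 0.10, and Gabra5 with Gabrb2 had -0.32, or -0.60 with group means removed.

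**Figure D5:**
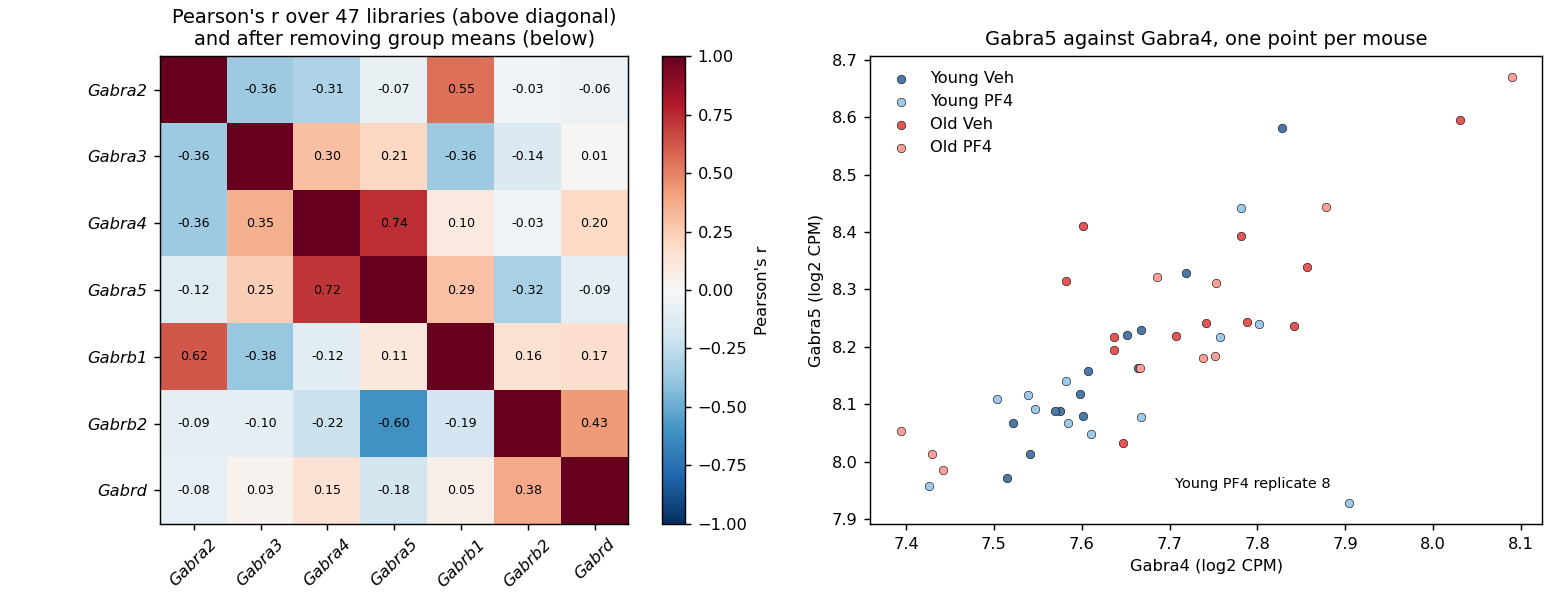
Left, Pearson's r of log2 CPM between the subunit genes over 47 libraries (above the diagonal) and with group means removed (below). Right, Gabra5 against Gabra4 in log2 CPM, 1 point per mouse, which rise together (r = 0.74) except in Young PF4 replicate 8, the library with the high thalamus markers.

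Members also varied with measures of the tissue and of the libraries. Gabra3 went down as the dentate granule score, the mean log2 CPM of the dentate markers, went up (r = -0.64, and -0.46 without the 2 farthest libraries). Gabra5 went with the microglia score at 0.54 and against the thalamus score at -0.50. Gabrb1 went against the thalamus score at -0.55 and against the choroid plexus score at -0.51, or -0.59 for both without the 2 farthest libraries of each. It went with the dentate score at 0.45, which was 0.21 without the 2 farthest libraries. With the length index Gabra5 had -0.53 and Gabrb2 0.63, or -0.28 and 0.39 without the 2 farthest, so much of both rested on Young Veh replicate 4 and Old PF4 replicate 8.

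The genes whose pattern over the 47 libraries was most like that of a member, by Spearman's rho of log2 CPM, were these. For Gabra5 they were Chn1, a Rac GTPase-activating protein (0.88), and Rasgrp1, an activator of Ras (0.86). For Gabrb1 they were Slc4a7, a sodium bicarbonate cotransporter (0.82), and Slc7a14, of the cationic amino acid transporter family (0.79), or 0.68 and 0.60 with group means removed. Gabra4 was most like Trim35 (0.79) and AI593442 (0.76), and Gabra2 most like Dynll1, a dynein light chain (0.77), and Nptx1, a neuronal pentraxin (0.74). The values were lower for Gabra3 with Zwint (0.73) and Zcchc18 (0.73), for Gabrb2 with Spaca6 (0.68) and Frs2 (0.67), and for Gabrd with Prdm4 (0.66) and Tbc1d30 (0.65).

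Other genes of GABA signalling were read by list. Of 22 genes that anchor, carry or assist GABA-A receptors, 2 were called in the age comparison of vehicle mice, both higher, among 10 with a point estimate above 0 and a median of -0.0095. Over all tested genes 2.77% were called in that comparison, and 15.2% had an unadjusted p under 0.05, which is the background for the lists that follow. Among them was Dmd (dystrophin, found at inhibitory synapses), which ranged from 82.6 to 124 CPM (median 115) in Young Veh and from 119.8 to 144 (median 136) in Old Veh. Its log2 fold change was 0.25 (SE 0.049, edgeR adjusted p = 0.00135), and the ranges overlapped slightly. In the other 4 comparisons 0 of 22 were called by edgeR, with 4, 2, 0 and 2 at an unadjusted p under 0.05 for age in PF4 mice, PF4 in aging mice, PF4 in young mice and the difference, in that order. Over all tested genes the shares under that p were 8.27%, 6.20%, 1.20% and 3.98%.

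Of 11 genes of GABA synthesis, vesicle loading, uptake and breakdown, 8 had point estimates below 0 with age in vehicle mice, and 1 was called. It was Glul, the glutamine synthetase of astrocytes, at 0.20 (SE 0.053, adjusted p = 0.0286). Gad1, a GABA-synthesizing enzyme named after its value was seen, had 0.0070 (interval -0.074 to 0.088). Of 8 genes of the chloride gradient, Wnk1, a kinase that controls chloride cotransporters, was called in both age comparisons, at 0.19 (adjusted p = 0.00397) in vehicle mice and 0.20 (adjusted p = 0.0172) in PF4 mice. Of 5 genes of GABA-B receptors, the metabotropic GABA receptors, 0 were called in any comparison by edgeR, with 2 at an unadjusted p under 0.05 for age in vehicle mice. The receptor subunits Gabbr1 and Gabbr2 had 0.033 (interval -0.085 to 0.15) and -0.11 (-0.23 to 0.021) there. Of 17 other GABA-A and glycine receptor subunits 10 passed the count filter, with 6 above 0, 0 called and 3 at an unadjusted p under 0.05 for age in vehicle mice.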

How the data were processed

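RNA was measured by RNA-seq (Smart-Seq2 cDNA, Nextera XT libraries, unstranded) in the hippocampus of 47 mice. The deposited file holds the authors' unnormalized read counts for each gene, which per the submitters' processing notes came from Trim Galore 0.3.7, STAR 2.5.3a and GRCm38. The gene counter is not given in the sources used here. The study left out libraries of low coverage, and no library was removed here.

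Groups came from the labels. Counts of genes that passed filterByExpr were scaled by TMM and fitted to the 4 groups together with edgeR 4.0.16 (R 4.3.3) by the quasi-likelihood test, two-sided, and p-values were adjusted over all 17778 genes by Benjamini-Hochberg, with 0.05 as the threshold. Standard errors are the log2 fold change over the square root of F, and 95% intervals come from them. p-values measure the spread between mice. CPM are TMM-scaled, and log2 CPM used a prior count of 2. Gene lengths and positions came from the GENCODE annotation (GRCm38), where 35024 of 35486 symbols matched (98.7%), and start regions from RefSeq. Alternatives were DESeq2 1.42.0, its size factors, another count filter (at least 10 reads summed over all libraries), the compared groups alone, covariates and libraries left out. The members, gene lists and marker lists were chosen with earlier results of these data known. Named genes are the members, the 2 genes most like each by Spearman's rho, and from each list the called genes or otherwise the most abundant; other receptor subunits are given by counts, and some genes of the lists are not reported here. Depth limits the lowest gene, Gabrd, to 64 to 646 reads per library, beside 606 to 7108 for Gabra5.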

Additional observations from a re-analysis of the deposited data

How the results depend on the processing

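Gabrb1 kept its call for age in vehicle mice in 9 of 10 alternatives (log2 fold change 0.13 to 0.17, adjusted p 0.00126 to 0.0315) and lost it with the choroid plexus score (0.13, adjusted p = 0.0553). Members called there came to 2 with DESeq2, with the length index, with the thalamus score and without the 3 libraries of extreme thalamus score or length index (a setting chosen after seeing the data), 0 with the choroid plexus score, and 1 to 2 over the fits that left out 1 library. The number of genes called for age in vehicle mice was 901 with the length index, 176 without libraries under 5000000 counts, 813 without those 3 libraries, and 356 to 593 without 1 library. For age in PF4 mice it was 90 with DESeq2, 21 with the compared groups alone, 90 with the replicate block, 98 with the length index, 103 without the 3 libraries, and 36 to 91 without 1 library. For PF4 in aging mice it was 24 with DESeq2, 0 with the compared groups alone, 10 with the replicate block, 0 with the length index, 10 with the choroid plexus score, 0 without libraries under 5000000 counts, and 0 to 20 without 1 library. The difference between ages gave 1 gene with the other count filter. The cause of these changes was not tested.

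Point estimates near 0 changed sign in 17 cases, none of them called. Gabra2 went to -0.0011 with the length index, -0.024 with the choroid plexus score, -0.0019 with the thalamus score and -0.0028 without libraries under 5000000 counts for age in vehicle mice, to 0.00099 with the length index for age in PF4 mice, and to 0.0021 for the difference between ages. Gabrd went to 0.0083 with the length index for PF4 in aging mice, 0.0048 for the difference with the length index and 0.0065 without the 3 libraries, -0.0065 with the choroid plexus score for age in PF4 mice and -0.027 without the 3 libraries for PF4 in young mice. Gabra5 went to 0.032 with the replicate block and 0.0046 with the thalamus score for the difference, and 0.010 without the 3 libraries for PF4 in young mice. Gabrb2 went to -0.029 and -0.052 and Gabra4 to -0.0098 for PF4 in young mice, without libraries under 5000000 counts or without the 3 libraries. Leaving out 1 library gave -0.039 to 0.0084 for Gabra2 and -0.0021 to 0.084 for Gabra4 for age in PF4 mice, -0.064 to 0.023 for Gabra5 for the difference, and -0.037 to 0.0075 for Gabra2, -0.020 to 0.045 for Gabrb2 and -0.0082 to 0.039 for Gabrd for PF4 in young mice. Levels per kilobase with the longest transcript were 19.9 for Gabra2, 49.8 for Gabra4 and 32.5 for Gabrb2.

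The replicate numbers were not taken as pairs. The median correlation of same-numbered mice was -0.0010, -0.044, 0.11 and -0.082 in the 4 comparisons, and 2 of 12, 0 of 10, 2 of 10 and 1 of 12 mice correlated best with their own number. With the replicate block 453 genes were called for age in vehicle mice, and Gabrb1 was still the 1 member called (0.16, adjusted p = 0.0150).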
